A study of Rattus norvegicus with 4 samples.

Results

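Regions of open chromatin that were called in rat retinal ganglion cells (RGCs) both before and after birth, but that ranked lower after birth, were examined here. There were 7017 such regions among 81097 regions called in all 4 libraries, or 8.65% of them. The members were selected on the measured ranks themselves. Every open chromatin region (OCR) on the 20 numbered chromosomes was ranked within its own library by −log10 q, the caller's measure of confidence, as a percentile from 0 (weakest) to 100 (strongest). OCRs of the 4 libraries that overlapped by at least 1 bp were merged into a region, and the region took the percentile of its best OCR in each library. To be a member, a region needed both embryonic percentiles above both postnatal ones, with a gap of at least 25 points between the stage means. By the mirror criterion 9936 regions (12.3%) ranked higher after birth, and these are called regions gaining rank below.

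ATAC-seq was done on RGCs of Sprague Dawley rats, with no treatment named, at 21 days of embryonic life (E21) or 11 days after birth (P11), with 2 libraries per stage, each from its own litter. Cells were taken from retina by immunopanning, which removes macrophages with one antibody and then holds RGCs on a dish through Thy1, and 300000 cells of each preparation were frozen before the assay. Each library carried its own list of OCRs, from 123707 to 163714 on the numbered chromosomes, and the 4 lists merged into 224715 regions. No region was assigned to a gene here, so the identity of the cells was not checked against marker genes.

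RGCs are the output neurons of the retina, and their axons form the optic nerve. They extend axons readily before birth and lose most of this capacity over the days after it, while synapses mature and the eyes prepare to open. ATAC-seq uses a transposase that cuts and tags DNA where nucleosomes are sparse, so a dense pile of fragments marks a promoter, enhancer or other accessible element. The height of the pile in a bulk library depends on how many cells have the site open and on how often it is open in each, and these cannot be told apart.

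The members sat in the upper middle of the E21 lists and in the lower part of the P11 lists. Their median percentile was 68.7 in E21 replicate 1, 73.6 in E21 replicate 2, 29.7 in P11 replicate 1 and 33.0 in P11 replicate 2. The stage means of these medians were 71.1 ± 3.4 at E21 and 31.4 ± 2.3 at P11 (SD, n = 2 libraries each). The separation between stages is what the criterion asked for and is given as a description with no test. Over all 81097 shared regions the medians were 68.4 ± 5.0 and 71.1 ± 1.3, so at E21 the members' median lay near that of all shared regions. The members' spread was narrower. In E21 replicate 1 their 10th and 90th percentiles were 45.5 and 85.5, against 19.5 and 93.4 in all shared regions. Regions gaining rank had medians of 32.4 ± 11.7 and 74.3 ± 1.5.

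**Figure D1:**
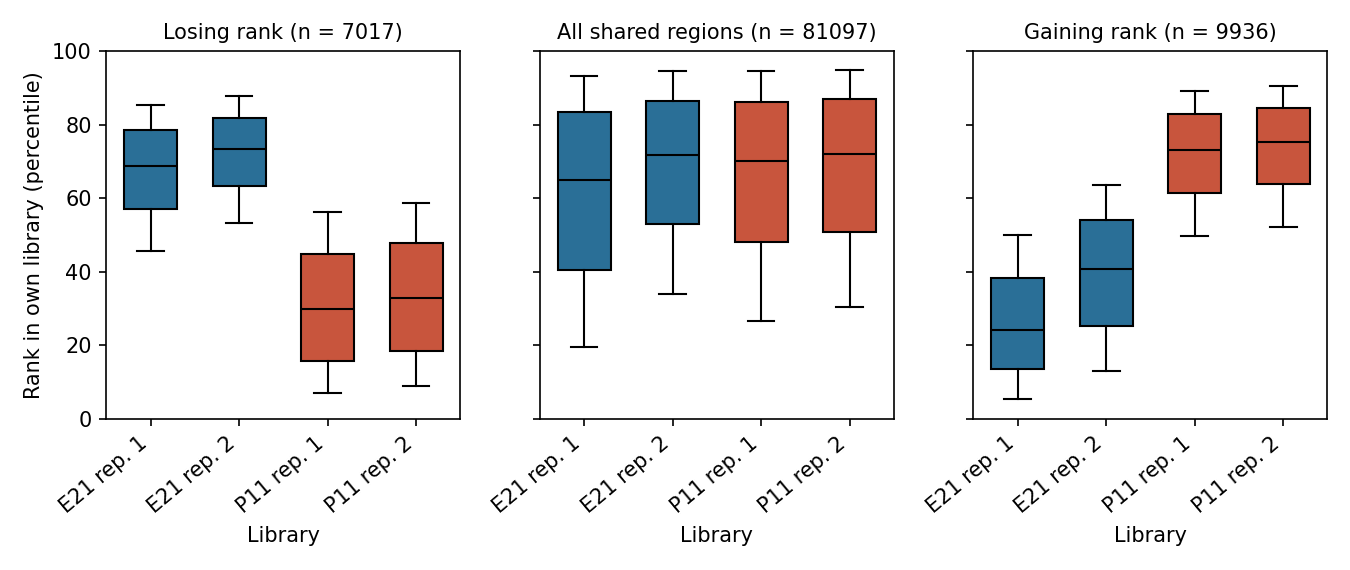
Percentile rank of regions in each of the 4 libraries (y axis, 0 to 100) for regions losing rank, all shared regions and regions gaining rank, with the median as a line, quartiles as the box and the 10th and 90th percentiles of the regions as whiskers. In regions losing rank the medians lie at 68.7 and 73.6 for E21 and at 29.7 and 33.0 for P11, a separation that the criterion sets.

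The fall in rank, the E21 mean minus the P11 mean, had a median of 34.5 points, with quartiles of 29.2 and 42.3 points and a largest value of 85.6. Between single libraries the median fall ran from 31.7 points (E21 replicate 1 against P11 replicate 2) to 40.4 points (E21 replicate 2 against P11 replicate 1). The replicates of a stage were not equally close in these regions. The E21 replicates differed by a median of 6.47 points and the P11 replicates by 15.8 points, while over all shared regions the values were 6.84 and 6.95. Among regions gaining rank it was the E21 replicates that stood further apart, at 16.0 points against 6.69 for P11. In fragments, however, the members' P11 replicates differed by a median of only 4 at the summit and the E21 replicates by 13. At the low end of a list a few fragments span many points, and among the regions named below the percentile in P11 replicate 1 went from 2.17 at 15 fragments to 13.9 at 18.

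The share of members varied with where a region stood at E21. A region with an E21 mean under the 25th percentile could not fall by 25 points, and 0 of 6073 such regions were members. Members made up 3.75% of shared regions with an E21 mean from 25 to 50, 14.5% of those from 50 to 75, 12.6% of those from 75 to 90 and 1.98% of those at 90 or more. The strongest E21 regions were seldom members by this criterion. Of the 13190 shared regions in the top band, 261 were. Rank does not measure the change in height. The member ranked highest at E21 fell by 28.7 points, while its summit went from 264 and 330 fragments to 37 and 40.

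The deposited lists also allow the height of each OCR to be described in fragments. From the fold enrichment and −log10 p of an OCR, its summit pileup (the number of fragments stacked at the highest point) and the local background that the caller expected there were worked out. These values come from the same libraries and the same contrast as the ranks, so they describe the members and do not test them. The members' median summit pileup was 57 fragments in E21 replicate 1, 68 in E21 replicate 2, 23 in P11 replicate 1 and 25 in P11 replicate 2. The lowest pileup of any listed OCR was 13 or 14 fragments, so at P11 many members stood only a little above the caller's floor. The genome-wide background, which scales with depth, was 4.80 and 5.03 fragments at E21 and 4.30 and 4.17 at P11, so the E21 libraries were the deeper ones. Divided by this background, the members' median pileup was 12.7 ± 1.2 at E21 and 5.67 ± 0.46 at P11 (SD, n = 2), against 12.2 ± 1.6 and 10.3 ± 0.73 in all shared regions.

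On the log2 scale the scaled pileup was higher at E21 by a median of 1.11 in members, by 0.31 over all shared regions, and lower by 0.76 in regions gaining rank. The zero of the rank scale and of the pileup scale therefore differ, and the pileup differences are best read against the shift of 0.31. Both E21 libraries exceeded both P11 libraries in scaled pileup in 6935 members (98.8%), beside 49.4% of all shared regions. For the fold over local background the count was 6999 members (99.7%), beside 54.9%. The scaled pileup was at least 2-fold higher at E21 in 4308 members (61.4%) and at least 4-fold higher in 193 (2.75%), beside 12.7% and 0.280% of all shared regions. The median fold was 8.08 and 8.55 for the E21 replicates against 3.89 and 4.16 for the P11 replicates.

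**Figure D2:**
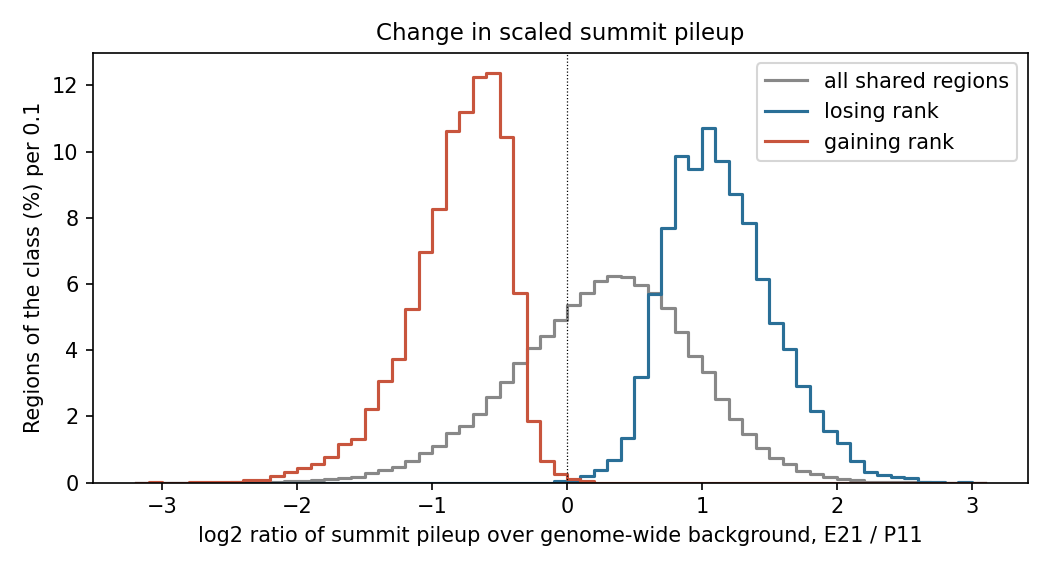
Distribution of the log2 ratio of scaled summit pileup, E21 over P11 (x axis), as the percent of each class of region per 0.1 log2 (y axis). The median is 1.11 in regions losing rank, 0.31 in all shared regions and −0.76 in regions gaining rank.

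The local background moved with the ranks as well. At P11 it lay at the genome-wide floor under 55.2% of members in either library, beside 30.3% and 28.7% of all shared regions. At E21 the shares were 37.8% and 30.0% for members, beside 35.3% and 28.4%. A high local background, at least 10 times the genome-wide value in any library, was found under 3 members and under 236 of all shared regions. The part of the local background in the change of rank was not tested.

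Members were compact regions whose called width was smaller at P11. Their best OCR had a median width of 480 and 545 bp for the E21 replicates against 313 and 329 bp for the P11 replicates. Over all shared regions the medians were 487, 574, 532 and 552 bp in the same order. Both E21 OCRs were wider than both P11 OCRs in 4924 members (70.2%), beside 24.5% of all shared regions. The called width of a peak depends on its height, so these are not separate measures. The merged region had a median width of 603 bp in members, 709 bp in all shared regions and 654.5 bp in regions gaining rank. Nearly all members were single peaks. In 6462 of them (92.1%) each library held exactly 1 OCR, much as in all shared regions (90.7%).

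Some members were close to being lost from the P11 lists. A −log10 q under 5 was found for 1725 members (24.6%) in P11 replicate 1 and for 922 (13.1%) in P11 replicate 2, and for 348 (4.96%) in both. Over all shared regions the shares were 4.99%, 2.62% and 0.729%. At E21 it was found for 1 member in replicate 1 and 0 in replicate 2, beside 3.77% and 1.22% of all shared regions. These counts follow from a criterion that picks low P11 ranks. At the other end, 377 members (5.37%) had a percentile of at least 50 in each P11 library, beside 65.8% of all shared regions. These regions had median summit pileups of 115 and 126 fragments at E21 and 33 and 34 at P11, a median log2 ratio of scaled pileup of 1.53 against 1.11 in all members. A move from percentiles of at least 75 in both E21 lists to percentiles under 25 in both P11 lists was seen in 83 regions. These were 1.18% of members and 0.102% of all shared regions, and any region with such a move is a member by construction. The median pileups of these 83 regions were 79 and 90 fragments at E21 and 18 and 19 at P11.

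The size of the fall followed both ends of the scale. In the 4858 members with a fall from 25 to 40 points the median pileups were 54, 65, 24 and 26 fragments, in the order E21 replicates 1 and 2 and P11 replicates 1 and 2. In the 1968 members with a fall from 40 to 60 points they were 60.5, 72, 21 and 22. In the 191 members with a fall of 60 points or more they were 75, 86, 18 and 19. Larger falls thus came with taller E21 peaks as well as lower P11 peaks. The median log2 ratio of scaled pileup was 0.99, 1.35 and 1.83 in the 3 groups. The groups were cut on ranks from the same libraries, so this pattern was largely set by the grouping and was not tested.

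The member with the largest fall lay on chromosome 4, from 92350100 to 92350766 (rn6). Its summit held 100 and 91 fragments at E21 and 15 and 14 at P11, and its percentiles were 87.2, 86.8, 2.17 and 0.644. Another followed on the same chromosome, from 133933538 to 133933959, with 84 and 111 fragments at E21 and 13 and 15 at P11. The third lay on chromosome 10, from 70786455 to 70787287, with 98 and 122 against 17 and 15 fragments. In these regions a tall E21 peak was reduced at P11 to a peak near the lowest height listed. That the percentiles of the stages did not overlap was required by the criterion. The fall was 85.6, 85.2 and 83.7 points.

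The next regions in order of the fall were of the same kind. A region on chromosome 15, from 46442569 to 46443202, held 142 and 131 fragments at E21 and 16 and 18 at P11. A region on chromosome 2, from 86190393 to 86190841, held 95 and 92 against 17 and 15. A region on chromosome 4, from 123880835 to 123881356, held 82 and 109 against 16 and 17. The seventh, on chromosome 4 from 15605238 to 15605978, differed in that its fold was only 9.54 and 9.60 at E21 although its pileups were 132 and 155 fragments, so it lay on a raised local background. Its fold at P11 was 3.69 and 2.45, with 19 fragments in each library. The eighth, on chromosome 15 from 100620023 to 100620675, showed the replicate spread at P11, with percentiles of 2.17 and 28.5 from pileups of 15 and 21 fragments.

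The last 4 of the 12 largest falls ran from 77.1 down to 74.4 points. The first of them was on chromosome 10 (26856262 to 26857095). The others were on chromosome 2, from 2475826 to 2476375, from 88118713 to 88119244 and from 117216937 to 117217718. Their E21 pileups ran from 69 to 115 fragments and their P11 pileups from 16 to 21. In all 12 regions each library held 1 OCR, and 4 of the 12 lay on chromosome 4 and 4 on chromosome 2. Chromosome 4 held 5427 and chromosome 2 held 6613 of the 81097 shared regions. Members made up 8.14% and 8.59% of these, beside 8.65% of all shared regions.

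**Figure D3:**
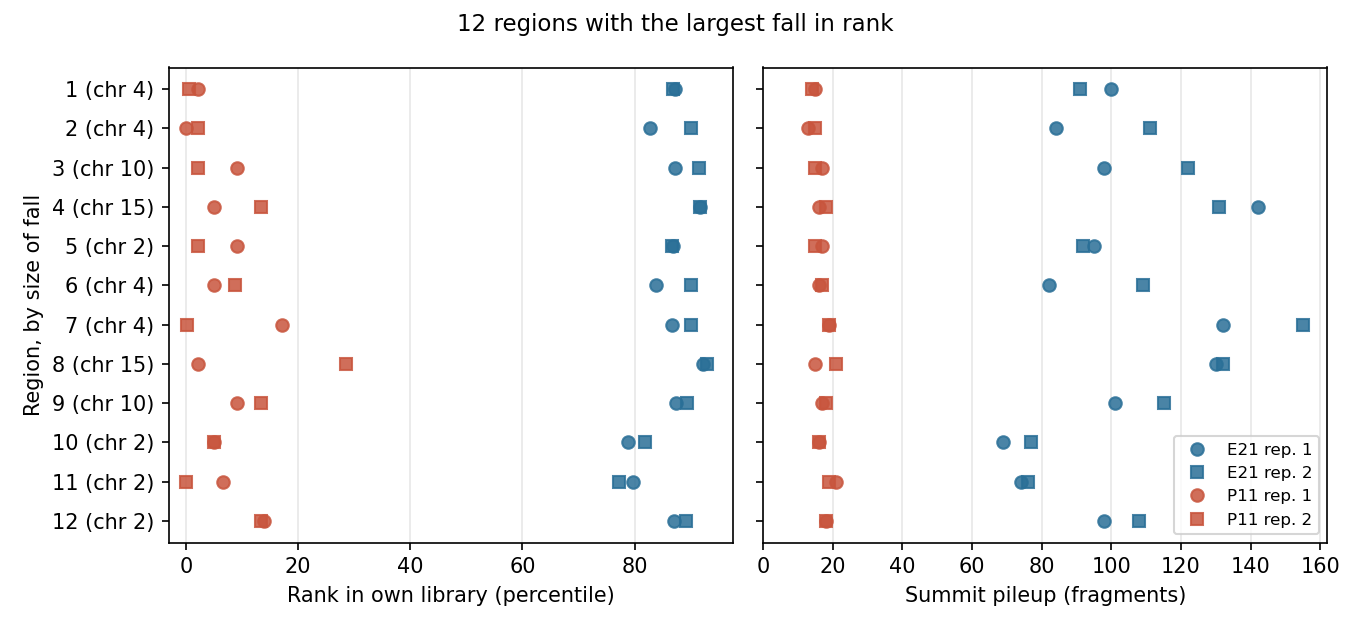
The 12 regions with the largest fall in rank (y axis, numbered by size of the fall, with the chromosome), by percentile in each library (left x axis) and summit pileup in fragments (right x axis); blue marks are E21, red marks are P11, circles are replicate 1 and squares replicate 2. P11 pileups lie between 13 and 21 fragments and E21 pileups between 69 and 155.

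The 6 members that ranked highest at E21 had falls of 27.5 to 35.7 points, on both sides of the members' median of 34.5, although their pileups differed widely between the stages. The highest lay on chromosome 10, from 91775074 to 91775854, with percentiles of 96.7 and 98.8 at E21 and 67.1 and 71.0 at P11. Its pileup was 264 and 330 fragments at E21 and 37 and 40 at P11. The next, on chromosome 17 from 15724405 to 15725284, held 262 and 255 against 37 and 45 fragments. A region on chromosome 3, from 96184555 to 96185763, held 217 and 218 against 32 and 31, and was split into 2 OCRs in each P11 library. In these 3 regions the replicates of a stage were close to each other relative to the gap between the stages. That was not so for a region on chromosome 15, from 29150128 to 29150690, where P11 replicate 1 had 24 fragments and P11 replicate 2 had 74, at percentiles of 42.8 and 93.8, against 142 and 252 fragments at E21. The remaining pair of this group, on chromosome 4 (36688896 to 36689515) and chromosome 1 (194190440 to 194192173), held from 161 to 211 fragments at E21 and from 28 to 41 at P11.

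The limit of 25 points cut through a continuous range. The member just inside it, on chromosome 17 from 18046191 to 18047078, had a fall of 25.0022 points with percentiles of 85.4, 89.0, 80.9 and 43.5, so only P11 replicate 2 stood well apart. The region just outside it, on chromosome 11 from 17214065 to 17214443, had a fall of 24.9954 points with percentiles of 24.1, 41.4, 2.17 and 13.4, from 24, 31, 15 and 18 fragments. The 3 nearest regions inside the limit held from 44 to 115 fragments at E21 and from 22 to 52 at P11, and the 3 nearest outside it held from 24 to 54 and from 15 to 29.

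Whether the fall was seen in libraries that did not choose the region was asked by choosing on 1 library of each stage and reading the other pair. The held-out libraries entered only in that a region had to be called in them. The regions chosen in this way are not the members, whose criterion used all 4 libraries. All shared regions, given beside them, were not matched to them in E21 rank, so the shares are a description. On E21 replicate 1 and P11 replicate 1, 8025 regions fell by at least 25 points. In the held-out E21 replicate 2 and P11 replicate 2, 6990 of them (87.1%, 95% Wilson interval 86.4 to 87.8) were also lower at P11, beside 50.8% of all shared regions. By at least 25 points, 3679 (45.8%) were lower, beside 12.1%. The median held-out fall was 22.7 points.

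The reverse choice gave lower shares, for the chosen regions and for all shared regions. On E21 replicate 2 and P11 replicate 2, 9790 regions fell by at least 25 points, and in the held-out pair 7567 (77.3%) were lower at P11, beside 42.3% of all shared regions. By at least 25 points, 3679 (37.6%) were lower, beside 9.9%. The median held-out fall was 17.2 points. With the replicates crossed the share lower at P11 was 90.2% and 71.5%, so each of the 4 ways of choosing gave a share above that of all shared regions, by 32.3 to 36.3 percentage points. The share was higher where E21 replicate 2 was held out, both for the chosen regions and for all shared regions. Intervals on shares of regions cover counting error only, since regions are not replicates of a stage.

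Summit positions were not used by the criterion. Between the E21 replicates the summits of the best OCRs in a member lay a median of 17 bp apart, and 74.2% lay within 50 bp. Between the P11 replicates the median was 60 bp, and 45.4% lay within 50 bp. Across stages the medians were 47, 49, 49 and 50 bp. In members the summits thus lay closer between E21 replicates than across stages, but no closer between P11 replicates than across stages. In all shared regions the medians were 20 bp for the E21 pair, 37 bp for the P11 pair and 38 to 44 bp across stages. In regions gaining rank they were 43 bp for the E21 pair, 38 bp for the P11 pair and 51.5 to 61 bp across stages. In both classes the wider pair was that of the stage with lower ranks, so this is not particular to members. The mean distance across stages was 10.25 bp longer than within stages in members (48.75 ± 1.26 bp over 4 pairs against 38.5 ± 30.4 bp over 2 pairs, SD). This difference was smaller than the SD of the 2 within-stage pairs, which is a description and not a test. The 4 libraries can be paired in only 3 ways. Permuting these pairings gave p = 0.333 (exact, 2-sided), the lowest value this test can give. With 0.05 out of reach, the test cannot decide whether summit distances differ within and across stages. Without either E21 library the difference turned to −12 or −10.5 bp, as the wide P11 pair then set the within-stage value alone. Peak height moved with these distances, since members had median pileups of 23 and 25 fragments at P11, and its part was not tested.

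Members lay on every numbered chromosome, and chromosome 10 held the highest share of them. There, 518 of 4210 shared regions were members (12.3%, Wilson interval 11.3 to 13.3). Chromosome 12 followed with 225 of 2152 (10.5%), chromosome 19 with 9.97% and chromosome 13 with 9.69%. The place of chromosome 12 rested on P11 replicate 2, as described below. The lowest share was on chromosome 17, where 216 of 3247 were members (6.65%, 5.85 to 7.56). The 2 directions mirrored each other at these ends, since regions gaining rank made up 8.12% of chromosome 10, the lowest share of any chromosome, and 15.2% of chromosome 17, the highest. The median E21 minus P11 percentile of the shared regions on these chromosomes differed in the same direction. It was 1.66 points on chromosome 10, the highest, and −2.78 on chromosome 17, the lowest, beside −0.68 over all shared regions. Quartiles over all shared regions were −12.5 and 9.02 points, so the medians moved little beside that spread.

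The position of chromosome 10 was the same in every pair of libraries taken alone. The share of its shared regions that were lower at P11 by at least 25 points was 11.9%, 13.0%, 16.6% and 18.1% in the 4 cross-stage pairs, each the highest of the 20 chromosomes, and over all chromosomes 9.9%, 8.29%, 14.3% and 12.1%. Chromosome 17 was lowest in both pairs with P11 replicate 2, at 5.67% and 8.13%, whereas chromosome 20 was lowest in both pairs with P11 replicate 1, at 8.31% and 12.02%. On chromosome 12 the share was 12.4% and 17.1% in the pairs with P11 replicate 2, above all chromosomes, and 9.53% and 13.4% in those with P11 replicate 1, below them. Shares are also given by band of E21 rank for chromosomes 10 and 17, as a description, since the criterion used the same ranks. Among shared regions with an E21 mean from 50 to 75, 21.1% of those on chromosome 10 were members, 11.9% of those on chromosome 17 and 14.5% of all. From 75 to 90 the shares were 18.1%, 8.98% and 12.6%. The 4 pairs share libraries and are not separate measurements.

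**Figure D4:**
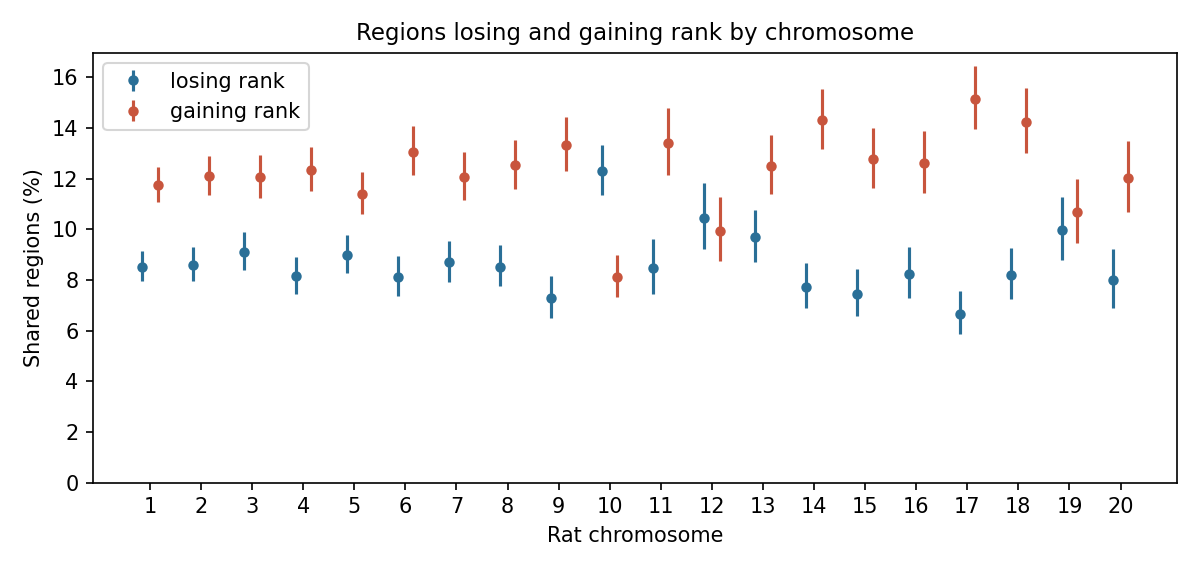
Percent of shared regions on each numbered rat chromosome (x axis) that lost rank (blue) or gained rank (red) after birth (y axis), with 95% Wilson intervals that cover counting error only. Chromosome 10 has the highest share losing rank (12.3%) and the lowest gaining rank (8.12%), and chromosome 17 the reverse (6.65% and 15.2%).

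Most members had no other member beside them, where members made up only 8.65% of all shared regions. The count of lone members is therefore not read as a trait of theirs. Taken in order along the chromosomes among shared regions, 5594 members stood alone, 581 pairs stood side by side, and there were 72 runs of 3, 10 runs of 4 and 1 run of 5. The run of 5 lay on chromosome 12, from 23049921 to 23149710, and spanned 99.79 kb. Of the 2583 windows of 1 Mb that held a shared region, 2166 held a member and 1969 held both a member and a region gaining rank. Windows held many shared regions, and no expected number was computed for these counts or for the runs.

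The windows richest in members held 14 or 15. On chromosome 1, from 161000001 to 162000000, 15 of 77 shared regions were members and 6 gained rank. On chromosome 12, from 44000001 to 45000000, 14 of 53 were members (26.4%) and 8 gained rank. On chromosome 13, from 49000001 to 50000000, 14 of 74 were members and 3 gained rank. The falls in these windows ran from 25.5 to 63.5 points, and the median window with at least 20 shared regions held 3 members.

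Shared regions close to a member were members about as often as any, while those at a distance were members somewhat more often. Within 5 kb, 8.24% of the shared regions next to a member were members (Wilson interval 7.31 to 9.28), beside 8.69% next to any shared region, and the sign of this small difference turned under 3 of the 15 alternatives. From 5 to 50 kb the share was 11.4% (10.7 to 12.04), beside 8.25%. Beyond 50 kb it was 12.1%, beside 10.4%. Regions gaining rank were found next to a member in 14.3% of cases within 5 kb, beside 12.8%, and in 10.6% of cases from 5 to 50 kb, beside 12.3%. A pair of neighbouring members enters these counts from both sides, so the intervals are too narrow.

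**Figure D5:**
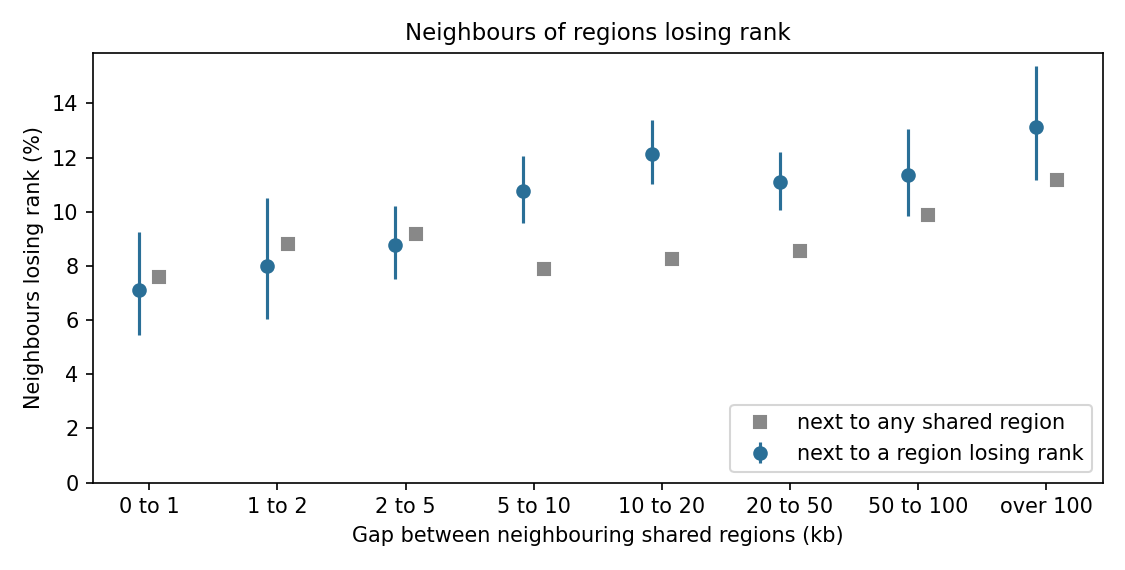
Percent of neighbouring shared regions that lost rank (y axis) by the gap between the neighbours in kb (x axis), next to a region losing rank (blue, with 95% Wilson intervals) and next to any shared region (grey). The blue values lie below the grey in the 3 classes under 5 kb, a sign that turned for the pooled class under 3 alternatives, and above it in the 5 classes from 5 kb upward.

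Members lay a little nearer to regions called only at E21 than other shared regions did. The median distance to the nearest region held by both E21 libraries and neither P11 library was 35751 bp, against 42749 bp for all shared regions, and 18.2% of members had one within 10 kb, beside 16.2%. For regions called only at P11 the median was 25195 bp for members and 22571 bp for all shared regions, and 28.1% had one within 10 kb, beside 28.6%. Such stage-only regions came from the same lists as the ranks, so these distances are a description.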

How the data were processed

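ATAC-seq of rat RGCs gave 4 libraries, 2 at E21 and 2 at P11, grouped by their GEO labels. The authors used the ATAC-seq Integrative Analysis Package (AIAP), calling OCRs in each library separately. The submitters' processing notes name MACS2 and the build rn6 (Rnor_6.0), and settings and versions are not given in the sources used here. The deposited lists give for each OCR the summit position, a score, the fold enrichment there, −log10 p-value and −log10 q-value. The lowest deposited −log10 q-value was 2.01 to 2.02. The deposited score was not used. Reads per region and a genome of the build were not used here, so no count model was fitted, no OCR was assigned to a gene and no sequence was read.

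OCRs on numbered chromosomes were ranked by −log10 q (tied values took their mean rank), merged at 1 bp of overlap, and compared as described above. No duplicate lines were found. Pileup and local background solved from fold and −log10 p gave whole fragments, within 0.02, for 100% of OCRs. Named regions were the 12 largest falls, the 6 highest E21 means, the 3 regions on either side of the limit and the 3 windows of 1 Mb with most members. The members, lists and comparisons were chosen with earlier results of these data known. Shares carry 95% Wilson intervals, which cover counting error only. The code was tested on simulated lists and run with Python 3.11.15, numpy 2.4.6, pandas 2.3.3 and scipy 1.17.1. Alternatives were other limits, ranks by fold, ranks among shared regions, equal list lengths, a stricter q, reciprocal overlap, 1 OCR per library, low background, a replicate block and each library left out.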

Additional observations from a re-analysis of the deposited data

Results flagged for a closer look

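The criterion used the numbered chromosomes only, and chromosome X was left outside it. With its OCRs ranked in the same way, 94 of its 1328 shared regions (7.08%, 95% Wilson interval 5.82 to 8.59) ranked lower at P11 by the same criterion, and 128 (9.64%) ranked higher. The values are given because these OCRs lie outside the numbered chromosomes. A count above 0 is no evidence of a stage difference, since the criterion selects on the measured ranks. The share losing rank lay between those of chromosomes 17 and 9.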

How the results depend on the processing

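The number of members was 15331 with a limit of 10 points, 2159 with 40 points and 3109 where the best OCRs of every pair of libraries had to overlap reciprocally by 50%. It was 6348 to 10763 with each library left out, lowest without E21 replicate 2 and highest without P11 replicate 2, and each of these changes the criterion and the shared regions together. The other settings gave 6462 to 9439. Equal list lengths gave 7904 regions, of which 3508 were among the 7017 members. This setting drops the weakest OCRs of the longer lists and left 69762 shared regions instead of 81097. A member could thus leave the shared regions as well as miss the limit, and these were not counted apart. Ranks by fold kept 82.1% of members and ranks among shared regions only 85.3%. The median fall was 33.5 to 37.4 points under those settings and 32.7 to 37.8 with each library left out. The held-out share lower at P11, 82.2% as a mean of both choices, ran from 77.2% to 88.2% over its alternatives. The difference of summit distance ran from −12 bp to 32.5 bp with each library left out, and was −12 bp without E21 replicate 1 and −10.5 bp without E21 replicate 2. It was 9 bp with 1 OCR per library.

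Chromosome 10 had the highest and chromosome 17 the lowest share of members in all 15 alternatives. The excess of members beside members within 5 kb, −0.45 percentage points, was 0.51 with equal list lengths, 0.62 with reciprocal overlap, 1.04 without P11 replicate 1 and −3.72 with ranks by fold, and with each library left out it ran from −1.12 to 1.04. From 5 to 50 kb the excess was 0.97 to 3.82 points. With a replicate block, which compares same-numbered libraries, there were 7141 members. Same-numbered libraries deviated together only weakly (correlation 0.0272 over shared regions). Regions are not replicates, so this value does not settle whether the libraries were paired. Some alternatives were chosen after seeing the data, namely those for chromosomes, neighbours and held-out ranks among shared regions only. Promoter and motif comparisons had been planned and were not run, since no genome of the build was used here. Depth was known only through the genome-wide background, and its part in the ranks was not tested. The cause of each difference between settings was not tested, beyond the limits that set the counts by construction.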
